A study of Schizosaccharomyces pombe with 22 samples.

Results

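Introns of 5 transcription regulator genes of the fission yeast Schizosaccharomyces pombe were followed through lariat sequencing and RNA-seq: tup12 (SPAC630.14c), prz1 (SPAC4G8.13c), deb1 (SPAC1B1.01), sfc9 (SPBC8D2.07c) and spp27 (SPCC285.17). The tables list 4701 annotated introns in 2356 genes, and 10 of these introns lie in these genes, none of them in prz1. The 5 genes hold 46 of 17799 branches, where a branch is 1 pairing of a 5' splice site with a branch point. The genes were taken by name with earlier results of these data known. spp27 was chosen by the lariat ratio of intron 2 between heat shock and rich media, and tup12 and sfc9 by the pooled share of lariat reads at alternate sites. Which values brought in prz1 and deb1 is not recorded. Those values are therefore given below as descriptions.

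Splicing releases an intron as a lariat, a loop closed between the first base of the intron and the adenosine of the branch point. The debranching enzyme Dbr1 opens this loop, and cells without dbr1 keep lariats, so reads across the closed junction name both the 5' splice site and the branch point used. Of the 5 genes, tup12 encodes a WD-repeat corepressor that is a paralog of Tup11 and works with Ssn6, prz1 the zinc finger factor that calcineurin activates in the calcium response, deb1 a DNA-binding transcription factor, sfc9 a subunit of TFIIIC, which recruits RNA polymerase III, and spp27 a subunit of the upstream activating factor of RNA polymerase I.

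All 12 lariat libraries came from the dbr1 deletion in the 972h- background, from cells in rich media, in heat shock and at the diauxic shift, with long and short gel fractions in duplicate for each condition (4 libraries per condition). The tables give 1 summed column per condition, so lariat values have no replicate spread and carry counting error only. The RNA-seq libraries were 1 each of wild type 972h- and its dbr1 deletion in the same 3 conditions, and 2 each of strain ED668 and of ED668 with upf1 deleted. Upf1 is a core factor of nonsense-mediated decay, which removes transcripts with early stop codons. Cells grew at 30 °C outside heat shock. Nothing in the labels says whether 2 libraries of a strain came from separate cultures, so upf1 p-values measure only the spread between these libraries. The heat shock, diauxic shift and dbr1 comparisons had 1 library per strain and condition, so no replicates. Their p-values and SEs rest on how far the strains disagree across conditions, which includes any true difference between strains in response.

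Aligned lariat reads numbered 53284863 for rich media, 9467948 for heat shock and 9854589 for the diauxic shift, and reads on annotated branches 1287956, 429313 and 1322943. Lariat ratios below are scaled by these annotated reads and come with an exact 95% counting interval. On this scale the median annotated intron with at least 50 reads in the higher condition had a log2 ratio of -0.68 in heat shock and -0.86 at the diauxic shift against rich media. These medians became 0.22 and 1.61 with total reads as the scale, so the main ratios to rich media are also given relative to the median intron, which no scale changes. Intron length moved with condition: introns of up to 60 bases had a median log2 ratio of -3.00 in heat shock and -5.66 at the diauxic shift (133 introns each), and introns over 150 bases 1.55 (193 introns) and 0.60 (207 introns). The part of gel size selection in this was not tested.

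The 5 genes held 6562 branch reads. By the authors' assignment, 1013 lay on annotated introns, 1719 at alternate sites paired with an annotated site, and 3830 on unannotated introns. Of the alternate reads, 1235 came from 1 branch point of deb1 and 65 from 1 of sfc9. Lariat reads do not name the 3' end, so calling these reads alternate rests on that assignment. Most of the 6562 reads came from deb1, with 5045, against 516 for tup12, 514 for sfc9, 479 for spp27 and 8 for prz1. All 10 annotated introns had at least 1 read. Of these, 6 reached 50 reads in heat shock or rich media and could be counted past 2-fold: introns 2 and 3 of spp27 and intron 3 of tup12 (3 in all) were higher in heat shock and 1, intron 1 of spp27, was lower, where 21.9% of 1299 introns were higher and 42.3% lower. Between the diauxic shift and rich media 2 of 4 were higher (intron 3 of tup12 and of sfc9) and 2 lower (intron 1 of spp27 and intron 2 of sfc9), where 16.7% of 1338 introns were higher and 48.8% lower. Between the diauxic shift and heat shock none of 4 was higher and 2, introns 2 and 3 of spp27, were lower, where 15.8% of 968 introns were higher and 37.2% lower. The heat shock ratio of intron 2 of spp27 chose the gene, so its place among those higher in heat shock was fixed in advance. Its heat shock reads enter the last comparison too, so these counts are descriptions. Of the alternate or unannotated forms, 13 had 1 to 4 reads each (21 in all: 4 forms of tup12, 4 of spp27, 3 of sfc9 and 2 of deb1), and RNA-seq reads were seen for 1 of them, in the 3' untranslated region of spp27.

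**Figure D1:**
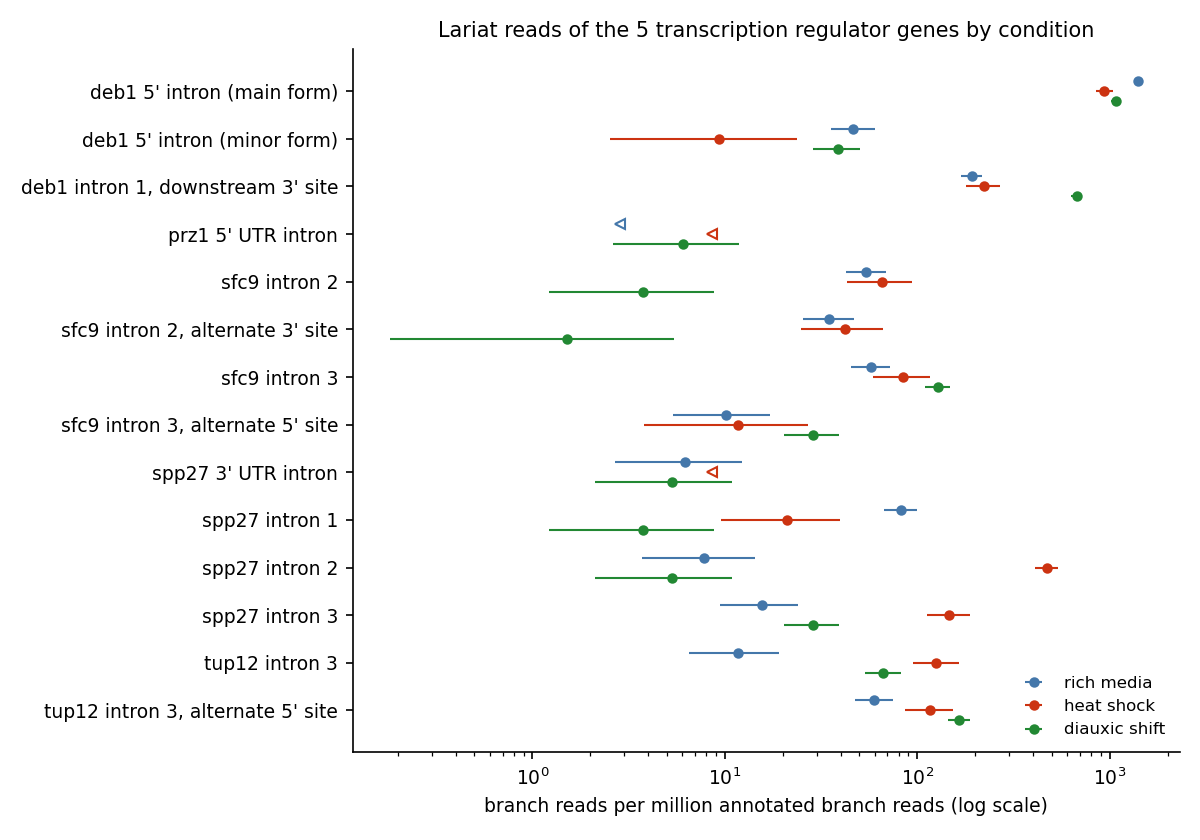
Branch reads scaled to the annotated branch reads of each condition (x axis, per 1000000, log scale) for the introns and alternate sites of the 5 genes with at least 8 reads, leaving out the deb1 introns that start inside its coding exon; points are the summed libraries of a condition, lines are exact 95% Poisson intervals, and open triangles are upper limits where no read was seen. Intron 2 of spp27 stands at 470.5 in heat shock against 7.76 in rich media.

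The sequences that carry the spp27 result are those of its 3 introns, each shown at the 5' splice site, with the first 6 bases of the intron in capitals, and from before the branch point to the 3' end, with the 5 bases around the branch point and the final AG in capitals. They were read from the plus strand of chromosome III of the RefSeq reference (ASM294v3), between 1832170 and 1832913.
spp27 intron 1, 5' site: gtttagGTAAGAtgagaa
spp27 intron 1, branch point: aataaTTAACcaaacttgtAG
spp27 intron 2, 5' site: gaacagGTAAGGcggtgt
spp27 intron 2, branch point: gattgCTAACtaacgtAG
spp27 intron 3, 5' site: aacaagGTAAGTtaatca
spp27 intron 3, branch point: ctaagCTAACttaattaatAG

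spp27 (chromosome III, 1831983 to 1834169, plus strand) has 3 annotated introns within its coding sequence, and they differed in condition. Intron 1 (72 bases, 1832176 to 1832247) had 106 reads in rich media, 9 under heat shock and 5 at the diauxic shift. Intron 2 (133 bases, 1832460 to 1832592) had 10, 202 and 7 reads in the same order. Intron 3 (171 bases, 1832743 to 1832913) had 20, 63 and 38 reads. Intron 1 was thus highest in rich media, and introns 2 and 3 were highest in heat shock.

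The ratio of intron 2 in heat shock to rich media, the value that chose the gene, was 60.6 (95% interval 32.3 to 128), or 6.60 on the log2 scale relative to the median intron. Introns of like length, taken from a running median along introns sorted by length, had a log2 ratio of 1.61, and intron 2 stood 4.24 above them. Intron 3 was 9.45-fold higher in heat shock (5.64 to 16.5), which on the log2 scale was 3.92 relative to the median intron and 1.64 above introns of like length. Intron 1 had a ratio of 0.255 (0.113 to 0.502), which on the log2 scale lay -1.29 from the median intron and -0.24 from introns of its length.

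Intron 1 at the diauxic shift had a ratio of 0.0459 to rich media (0.0146 to 0.111), on the log2 scale -3.58 from the median intron and -0.88 from introns of like length. Intron 3 had a ratio of 1.85 (1.05 to 3.36) and intron 2 of 0.681 (0.220 to 1.98), an interval that includes no change. Relative to the median intron these were 1.75 and 0.31 on the log2 scale. Against heat shock, intron 2 at the diauxic shift was 88.9-fold lower and intron 3 was 5.11-fold lower. The 2 branch points of intron 3 had 113 and 8 reads, and 218 of the 219 reads of intron 2 fell on 1 branch point.

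The letters around these branch points were set against those of all annotated introns. CTAAC, found in introns 2 and 3, surrounds the most-read branch point of 49.2% of 2812 annotated introns with reads, and TTAAC, found in intron 1, of 13.5%. The 5' site of intron 2 begins GTAAGG, a start shared by 2.67% of these introns, while GTAAGT of intron 3 is shared by 30.4% and GTAAGA of intron 1 by 6.12%. An intron in the 3' untranslated region of spp27 (1833286 to 1833408) had 8 reads in rich media, 0 under heat shock and 7 at the diauxic shift. The same 5' site joined to 1833357 had 1 lariat read, and in RNA-seq 3 reads in each upf1 deletion library and 0 in the other 8 libraries. A single read spanned introns 1 and 2 as a skip of the 212-base exon between them.

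For tup12 the result turns on a choice between 5' splice sites of intron 3, both shown with the first 6 bases of the intron in capitals, and on the branch point they share, with the 5 bases around it and the final AG in capitals. They lie on the minus strand of chromosome I, the annotated site at 376082 to 376099, the alternate site at 375980 to 375997 and the branch point region at 375831 to 375850 (ASM294v3).
tup12 intron 3, annotated 5' site: tgcgaaGTAAGTtcaagc
tup12 intron 3, alternate 5' site: catctgGTATGTtgtaca
tup12 intron 3, branch point: ttcttaCTTACcattcacAG

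tup12 (chromosome I, 374316 to 377137, minus strand) has 3 annotated introns, of which intron 3 (263 bases, 376093 to 375831) held 157 of the 160 annotated reads, with 2 on intron 1 and 1 on intron 2. The alternate 5' site at 375991, 102 bases downstream of the annotated one, was read more often, with 345 reads. The annotated site had 15 reads in rich media, 54 under heat shock and 88 at the diauxic shift. The alternate site had 77, 50 and 218 reads. Both sites used the branch point at 375841 for nearly all reads (152 of 157 and 335 of 345), so the loops were 253 bases long for the annotated site and shorter by the same 102 bases for the alternate one. The part of loop length in the shares that follow was not tested.

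The alternate site took 83.7% of the reads of both sites in rich media (Wilson 95% interval 74.8 to 89.9, 92 reads), 48.1% in heat shock (38.7 to 57.6, 104 reads) and 71.2% at the diauxic shift (65.9 to 76.0, 306 reads). Pooled, the value that chose the gene, the share was 68.7% (64.5 to 72.6). The interval in heat shock lay below those of the other two conditions, which overlap each other. The annotated form was 10.8-fold higher in heat shock than in rich media (6.01 to 20.6) and the alternate form 1.95-fold higher (1.34 to 2.82). For the diauxic shift these ratios were 5.71 (3.28 to 10.6) and 2.76 (2.12 to 3.62). Relative to the median intron the log2 values were 4.12 and 1.65 in heat shock and 3.38 and 2.32 at the diauxic shift, for the annotated and the alternate form. Relative to introns of like length the annotated form was 1.90 higher in heat shock and 1.75 higher at the diauxic shift on the log2 scale. For the alternate form no such value was computed. Annotated introns over 150 bases, its length range, had medians of 1.55 in heat shock and 0.60 at the diauxic shift. The alternate form stood at 0.96 and 1.46, below the former and above the latter.

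With the alternate site the transcript keeps 102 bases of the intron. The reading frame is kept in length, but the kept bases hold a stop codon, and translation of the reference sequence ends after 195 residues in place of 570. GTATGT at the alternate site starts 22.1% of the 2812 annotated introns and GTAAGT at the annotated site 30.4%. CTTAC surrounds the branch point of 2.70% of them.

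In RNA-seq the junction of the alternate site had 2 reads in wild type and 1 in the dbr1 deletion in rich media, 13 and 9 in heat shock, and 0 and 5 at the diauxic shift. Per 10000000 aligned reads these were 1.61 and 0.641 in rich media, 8.56 and 5.35 in heat shock, and 0 and 4.05 at the diauxic shift. Both strains were thus higher in heat shock than in rich media, while at the diauxic shift wild type was lower and the dbr1 deletion higher. The junction had too few reads to pass the filter on low counts in the growth comparisons. With no filter, over 1954 junctions, its log2 changes were 2.50 (SE 1.33) in heat shock and 0.30 (SE 1.55) at the diauxic shift, and neither was called (adjusted p = 1 in both, edgeR). A second downstream 5' site at 375977, with 5 lariat reads, had 3 RNA-seq reads in wild type heat shock, 1 in an ED668 library and 4 in an upf1 deletion library.

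In ED668 the junction of the alternate site had 21 and 20 reads, and with upf1 deleted 41 and 30. Per 10000000 aligned reads these were 6.62 and 6.27 against 11.2 and 9.88. The log2 change was 0.35 (SE 0.15) and was not called by the edgeR quasi-likelihood test (adjusted p = 0.349 over 58 alternate junctions), where 8.62% of the junctions were called higher and 5.17% lower. With aligned reads as library sizes in place of the sum of junction counts, the log2 change was 0.71 and the junction was called (adjusted p = 0.0465, edgeR). With that choice 21 of 62 junctions were called higher and 3 lower, so the call depends on it.

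**Figure D2:**
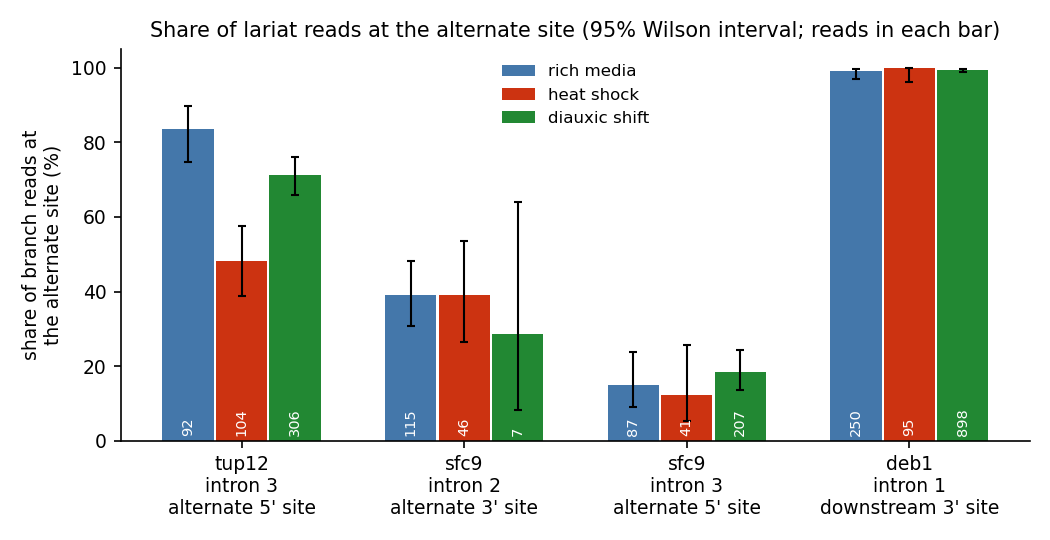
Share of lariat reads at the alternate site among alternate and annotated reads of the intron (y axis, percent) by condition for tup12, sfc9 and deb1; error bars are Wilson 95% intervals and white numbers are the reads in each bar. The tup12 share is 83.7% in rich media and 48.1% in heat shock, and the intervals of each sfc9 site overlap across conditions.

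The sfc9 result rests on a second 3' splice site that the authors assign inside intron 2 and a second 5' site inside intron 3. The first line below shows the end of intron 2, with both branch point adenosines and both AG ends in capitals (chromosome II, 1374626 to 1374655, minus strand, ASM294v3), and the other lines the 5' sites of intron 3 with the first 6 intron bases in capitals (1374526 to 1374543 and 1374414 to 1374431).
sfc9 intron 2, both 3' ends: tgAgagtataaaAGctaAcgtgttttacAG
sfc9 intron 3, annotated 5' site: ttacgaGTATGTtcttaa
sfc9 intron 3, alternate 5' site: tttaaaGTTTGTttatcg

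sfc9 (chromosome II, 1372488 to 1374966, minus strand) has 3 annotated introns. Intron 1 (47 bases by the positions 1374827 to 1374781) had 5 reads in rich media and none in the other conditions. Intron 2 (58 bases, 1374683 to 1374626) had 70 reads in rich media, 28 under heat shock and 5 at the diauxic shift. Intron 3 (199 bases, 1374537 to 1374339) had 74, 36 and 169 reads. Intron 2 was lowest at the diauxic shift and intron 3 highest there.

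The ratio of intron 2 at the diauxic shift to rich media was 0.0695 (0.0219 to 0.170). Introns of like length had a log2 ratio of -4.43, and intron 2 stood 0.71 above them. In heat shock its ratio was 1.20 (0.745 to 1.89), where introns of like length had a log2 ratio of -2.46, so that it stood 2.74 above them. The ratio of intron 3 was 1.46 in heat shock (0.952 to 2.20) and 2.22 at the diauxic shift (1.68 to 2.96), -0.87 and 0.37 from introns of like length on the log2 scale. Relative to the median intron, intron 2 stood at 0.95 in heat shock and -2.98 at the diauxic shift, and intron 3 at 1.23 and 2.01.

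A second branch point of intron 2, at 1374653, closes a loop of 31 bases. It had 45 reads in rich media, 18 under heat shock and 2 at the diauxic shift. The authors pair it with an upstream 3' site at 1374642, but lariat reads name the branch point and not the 3' end. These are 39.1% of the reads of both branch points in rich media (30.7 to 48.3, 115 reads), 39.1% in heat shock (26.4 to 53.5, 46 reads) and 28.6% at the diauxic shift (8.22 to 64.1, 7 reads). Differences between conditions were not detectable at this depth. The letters ATGAG around this branch point surround the most-read branch point of 0 of 2812 annotated introns, which allows a share of up to 0.107%. CTAAC at the annotated branch point of intron 2 is the most common of those listed here.

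The alternate 5' site of intron 3, at 1374425, had 13, 5 and 38 reads, or 14.9% in rich media (8.94 to 23.9, 87 reads), 12.2% in heat shock (5.32 to 25.5, 41 reads) and 18.4% at the diauxic shift (13.7 to 24.2, 207 reads). Its intervals overlap in every pair of conditions. It shares the branch point at 1374347 with the annotated site, so that the loop is 79 bases in place of 191. GTTTGT at the alternate site starts 0.925% of annotated introns.

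Neither alternate site of sfc9 was found at its lariat level in RNA-seq. The upstream 3' site had 0 junction reads in all 10 libraries against 65 lariat reads, and the alternate 5' site 1 read, in the dbr1 deletion in heat shock, against 56 lariat reads. Over the series, 37 of the 69 upstream 3' alternates with at least 50 lariat reads had 0 RNA-seq reads (53.6%), whereas of 16 downstream 5' alternates the sfc9 site was the 1 with at most 1 read (6.25%). The tup12 site, of the same kind, had 142 RNA-seq reads. On the reference sequence, use of the upstream 3' site adds 16 bases and shifts the frame to a stop after 74 of 673 residues, and use of the alternate 5' site adds 112 bases and gives a stop after 111.

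**Figure D3:**
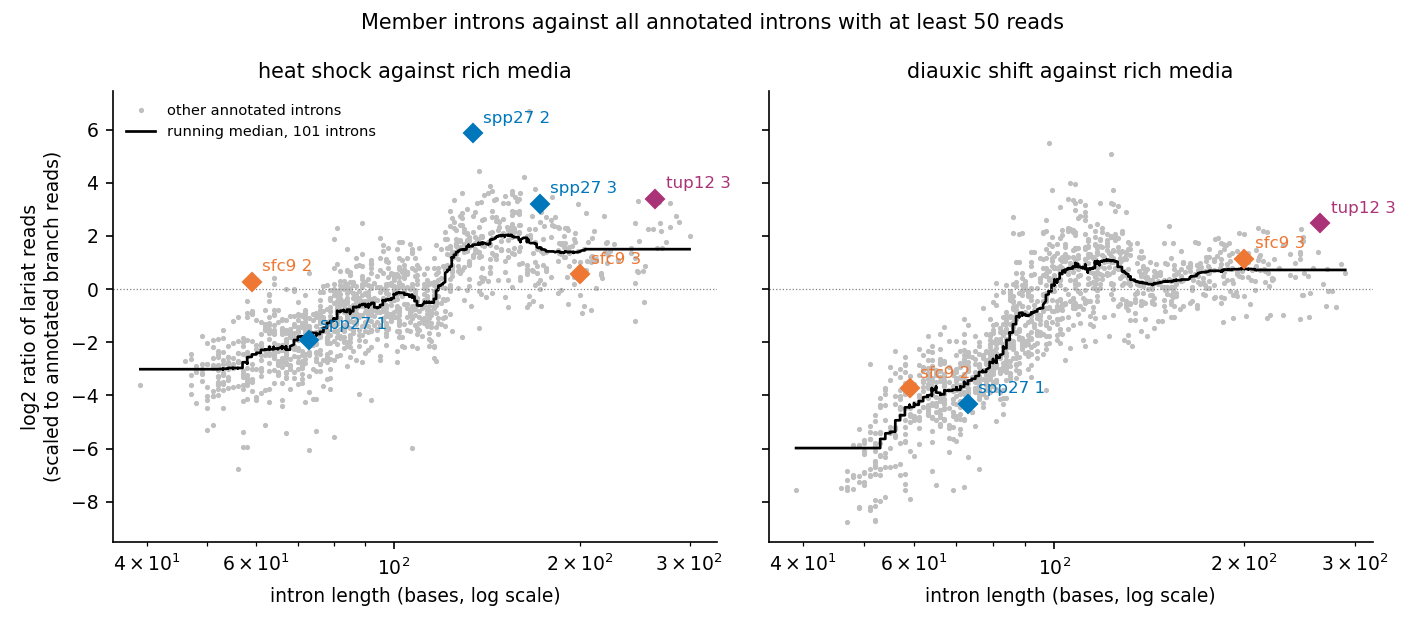
Log2 ratio of lariat reads to rich media (y axis, pseudocount 0.5) against intron length as listed by the authors (x axis, bases, log scale) for heat shock (left) and the diauxic shift (right), for annotated introns with at least 50 reads in the higher condition; grey points are other introns, the black line is the running median and diamonds are introns of tup12, sfc9 and spp27. Intron 2 of spp27 lies 4.24 above the line in heat shock, and intron 2 of sfc9 2.74 above it.

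For deb1 the question is where the main lariats end, so the region around the branch point of intron 1 is shown with the 5 bases around it and both possible AG ends in capitals (chromosome I, 3537966 to 3537993, plus strand), followed by the end of an intron near the start of the gene, with its branch point letters and AG in capitals (3536710 to 3536730, plus strand, ASM294v3).
deb1 intron 1, both 3' ends: ttcatcagTTAACctttAGctcctcaAG
deb1 5' intron, branch point: gaacgCTGACcaaaacaatAG

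deb1 (chromosome I, 3536495 to 3538612, plus strand) has 1 annotated intron, 3537789 to 3537984. The authors assigned 6 reads to it, 2 in rich media and 4 at the diauxic shift, from a branch point at 3537969. A 3' site 9 bases downstream, at 3537993, had 248 reads in rich media, 95 under heat shock and 894 at the diauxic shift, or 99.2% (97.1 to 99.8), 100% (96.1 to 100) and 99.6% (98.9 to 99.8) of the reads of both. Of its 1237 reads, 1235 came from the branch point at 3537977, whose letters are TTAAC.

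That branch point lies 7 bases before the annotated 3' end and 16 bases before the downstream one. Over 2774 annotated introns the distance from the most-read branch point to the 3' end had a median of 12 bases and a minimum of 7, seen in 45 introns (1.62%). Lariat reads name the 5' site and the branch point and not the 3' end, so the lariat counts alone do not choose between both ends. Counting this branch point with the annotated intron leaves 0.161% of the reads at the downstream site. RNA-seq reads cross the exon junction itself, and the junction to 3537993 was read in all 10 libraries. It had 12 and 6 reads in rich media (wild type and dbr1 deletion), 7 and 5 in heat shock, 20 and 19 at the diauxic shift, 22 and 26 in ED668, and 24 and 24 with upf1 deleted. RNA-seq reads of annotated junctions were not analysed here, so the share of the downstream end among transcripts is not given. The downstream site removes 9 more bases in frame, and the reference protein is then 475 residues long in place of 478.

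Lariat reads of this intron were 3.51-fold higher at the diauxic shift than in rich media (3.05 to 4.06) and 3.05-fold higher than in heat shock (2.47 to 3.81). In heat shock the ratio to rich media was 1.15 (0.897 to 1.46). Relative to the median intron the log2 ratios to rich media were 2.67 at the diauxic shift and 0.88 in heat shock. Annotated introns over 150 bases, the length range of this intron, had medians of 0.60 at the diauxic shift and 1.55 in heat shock. On the same annotated scale this intron stood at 1.81 and 0.20, above the former median and below the latter. Per 10000000 aligned RNA-seq reads the junction stood at 9.65 and 3.85 in rich media, 4.61 and 2.97 in heat shock and 10.6 and 15.4 at the diauxic shift (wild type and dbr1 deletion). In both strains it was lower in heat shock and higher at the diauxic shift than in rich media, and the wild type values of rich media and the diauxic shift are close. Its log2 changes were -0.69 (SE 0.75) in heat shock and 0.92 (SE 0.68) at the diauxic shift in the edgeR fit, and the latter ranged from 0.075, without the dbr1 deletion in rich media, to 1.59, without wild type in rich media. With upf1 deleted the log2 change was -0.43 (SE 0.24), not called (adjusted p = 0.282, edgeR).

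The most abundant lariat of the 5 genes was an unannotated deb1 intron of 113 bases from 3536618 to 3536730, which the authors place in the 5' untranslated region. It had 1812 reads in rich media, 403 under heat shock and 1417 at the diauxic shift. The annotated start codon lies at 3536627, 9 bases into this intron, and the intron takes out 104 coding bases; the next in-frame ATG of the annotated coding sequence begins at 3536744 and is residue 40 of 478. Its 5' site begins GTAAAG, as do 0.284% of annotated introns, and CTGAC surrounds its branch point at 3536718, as in 4.98% of them.

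The ratio of this intron was 0.667 in heat shock (0.597 to 0.744) and 0.761 at the diauxic shift (0.710 to 0.817) against rich media. With total reads as the scale both log2 ratios are above 0, at 0.32 and 2.08, and relative to the median annotated intron they were 0.10 and 0.47. The direction of this intron thus depends on the scale. Annotated introns over 100 and up to 150 bases, its length range, had medians of 0.37 in heat shock and 0.60 at the diauxic shift. On the same annotated scale this intron stood at -0.58 and -0.39, below both medians. Within deb1, the diauxic ratio of intron 1 was higher than that of the 5' intron on every scale, since both share it.

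The same branch point was joined to 3 further 5' sites. The site at 3536614 had 60 reads in rich media, 4 under heat shock and 51 at the diauxic shift, that at 3536631 had 27, 5 and 12, and that at 3536659 had 5, 0 and 1. Their order differed in RNA-seq pooled over strains and conditions, where 433 of 563 reads came from ED668 and its upf1 deletion. The pooled intervals treat these reads as 1 sample and leave out the spread between libraries. At 3536659, for example, the 2 ED668 libraries had 18 and 5 reads. Over 10 libraries the main junction had 481 of 563 reads (85.4%, Wilson 95% interval 82.3 to 88.1), the site at 3536659 had 69 (12.3%, 9.80 to 15.2) and the site at 3536614 had 2 (0.355%, 0.0975 to 1.29). In lariats they had 95.5% (94.8 to 96.1), 0.158% (0.0724 to 0.344) and 3.02% (2.53 to 3.62) of 3802 reads. In the dbr1 deletion alone, the strain of the lariats, RNA-seq gave 2 of 35 reads to the site at 3536614, 2 to that at 3536659 (5.71% each, 1.58 to 18.6) and 0 to that at 3536631.

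In RNA-seq the main 5' junction of deb1 had 29 reads in wild type and 14 in the dbr1 deletion in rich media, 23 and 8 in heat shock, and 31 and 9 at the diauxic shift. Per 10000000 aligned reads these were 23.3 and 8.97, 15.1 and 4.75, and 16.4 and 7.30, lower in the dbr1 deletion in 3 of 3 conditions. The fraction that the authors head PSI was 0.630 and 0.289 in rich media, 0.597 and 0.356 in heat shock and 0.380 and 0.247 at the diauxic shift, lower in the dbr1 deletion in each. The log2 change was -0.91 (SE 0.37) and was not called (adjusted p = 0.837, edgeR). With aligned reads as library sizes it was -1.39. The other tested junctions of these genes also moved down with that choice, deb1 3537993 from 0.12 to -0.36 and prz1 from 0.38 to -0.050. In the dbr1 comparison 0% of 85 junctions were called in either direction by edgeR, with 5 at an unadjusted p under 0.05, and DESeq2 called 0.

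The growth comparisons of the same junction gave a log2 change of -0.66 (SE 0.45) in heat shock and -0.50 (SE 0.44) at the diauxic shift. In ED668 it had 89 and 85 reads and with upf1 deleted 96 and 97, a log2 change of -0.14 (SE 0.17; adjusted p = 0.549 over 178 unannotated junctions, edgeR), where 25.8% were called higher and 19.1% lower. The site at 3536659 had 18 and 5 reads in ED668 and 24 and 9 with upf1 deleted, so these groups overlap (log2 change 0.21, SE 0.57, adjusted p = 0.792, edgeR). It had 8 reads in wild type heat shock and 0 in both rich media libraries.

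prz1 (chromosome I, 786778 to 789912, minus strand) is a single-exon gene in the reference, with its start codon at 789164. The authors list an intron of 177 bases in its 5' untranslated region, from 790145 to 789969, which ends 57 bases upstream of the start of the reference transcript and is separated from the start codon by 804 bases. It had 8 lariat reads, all at the diauxic shift, from 1 branch point with the letters CTAAC, and its 5' site begins GTAAGT. With 3 reads in place of 0 in rich media the ratio was 2.60, which takes the 8 reads as exact. On the counts as they stand, the lower limit of the exact 95% interval was 1.66. Against heat shock the lower limit was 0.554 on the annotated scale, which includes no change, and 1.64 with total reads as the scale, which does not, so the comparison depends on the scale.

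The RNA-seq reads of this junction also fell mostly at the diauxic shift. It had 0 reads in both rich media libraries, 0 in wild type and 2 in the dbr1 deletion in heat shock, and 33 in wild type and 14 in the dbr1 deletion at the diauxic shift. ED668 had 2 and 3 reads, and the upf1 deletion libraries 4 and 1. Per 10000000 aligned reads the diauxic libraries stood at 17.5 and 11.4 and every other library with a numbered column at 1.19 or less. With 3 reads per library in place of 0, the diauxic level was 7.25-fold higher than rich media in wild type and 5.90-fold higher in the dbr1 deletion. These values take the diauxic reads as exact, so they are not lower limits.

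The PSI fraction of the prz1 intron was 0.545 in wild type and 0.518 in the dbr1 deletion at the diauxic shift. It was 0.667 in the dbr1 deletion in heat shock on 2 reads, and 0.400 in each ED668 library on 2 and 3 reads. At the diauxic shift edgeR called 0% of 85 junctions in either direction (9 at an unadjusted p under 0.05, and 0 by DESeq2), and the prz1 junction was not called (adjusted p = 0.139). It was called with aligned reads as library sizes (adjusted p = 0.0122, edgeR) and without the wild type heat shock library (adjusted p = 0.00719, edgeR). Since this difference may have brought the gene in, these p-values are no independent support. For heat shock 5.88% of the 85 junctions were called higher and 0% lower, none of them a junction of these genes.

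**Figure D4:**
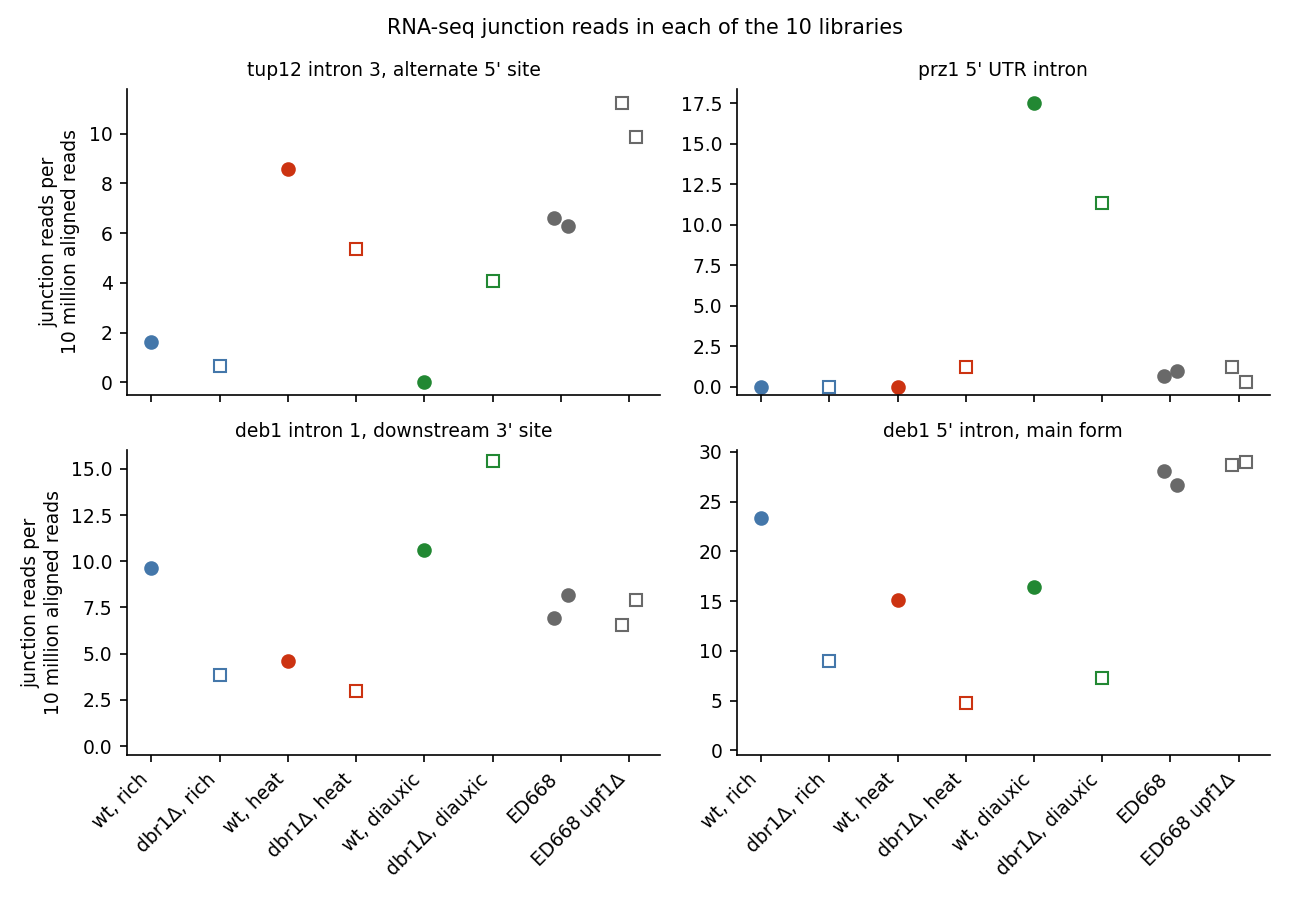
Junction reads per 10000000 aligned reads (y axis) in each of the 10 RNA-seq libraries for the most-read tup12, prz1 and deb1 junctions; filled circles are wild type or ED668, open squares the dbr1 or upf1 deletion, 1 point per library, and unnumbered upf1 deletion columns in the right panels use the mean aligned reads of that group. The prz1 junction stands at 17.5 and 11.4 at the diauxic shift, and the deb1 5' intron is lower in the dbr1 deletion in each condition.

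Introns elsewhere were compared by the distance between their pairs of log2 ratios (heat shock and diauxic shift, each to rich media), over 1310 annotated introns with reads in every condition. The pattern of tup12 intron 3 was nearest to intron 2 of gid7 (distance 0.43) and intron 1 of mpg1 (0.45). sfc9 intron 3 was nearest to intron 2 of cul1 (0.04) and intron 2 of lsc1 (0.07). For spp27 intron 2 the nearest were intron 1 of rpl3601 at 1.75 and intron 1 of rpp101 at 1.79, with log2 ratios in heat shock of 4.23 and 4.48. The heat shock ratio of spp27 intron 2 is the value that chose the gene, so these larger distances are no independent result. deb1 and prz1 had no annotated intron with enough reads for this comparison.

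Other regulators were read from a list of 55 genes, chosen with earlier results known: the partners of Tup12, calcineurin and calcium genes, TFIIIC, RNA polymerase I initiation factors and DNA-binding factors. Of these, 22 have an annotated intron, with reads on 27 of their 36 introns. In heat shock against rich media 5 of 15 measured introns were past 2-fold higher and 5 lower (33.3% each, against 21.9% and 42.3% of all introns), with a median log2 ratio of -0.36, against -0.68 over all introns. For the diauxic shift 4 of 16 were higher and 6 lower (25% and 37.5%, against 16.7% and 48.8%), with a median of -0.24 against -0.86. Relative to introns of like length these medians were -0.08 and -0.72.

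The highest list intron in heat shock was intron 1 of res2, a subunit of the MBF cell cycle factor, with 86 reads against 2 in rich media, a ratio of 129 (34.6 to 1082). Next was intron 4 of prr1, a response regulator factor, at 7.58 (6.92 to 8.30). The lowest were intron 2 of php3, a CCAAT-binding subunit, with 1 read against 56, and intron 1 of cbf11, a CSL family factor, with 2 against 59. The ratios of these were 0.0536 (0.00133 to 0.311) and 0.102 (0.0120 to 0.384).

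At the diauxic shift the highest were intron 1 of mbx1, a MADS box factor, at 5.31 (2.77 to 11.2), and intron 2 of ncs1, a calcium sensor, at 2.43 (2.37 to 2.49). The lowest were intron 1 of zip1, a bZIP factor, at 0.0151 (0.00181 to 0.0556), and intron 2 of php3 at 0.104 (0.0367 to 0.242). Against introns of like length, php3 intron 2 (56 bases) stood at 2.17 and zip1 intron 1 (64 bases) at -1.76 on the log2 scale. Alternates above 5% of reads occurred on 3 of 16 list introns with at least 100 reads: an upstream 3' site of mbx1 intron 3 (22.1%, Wilson 95% interval 16.1 to 29.7), an upstream 3' site of cnb1 intron 1 (16.5%, 13.4 to 20.04) and a downstream 5' site of sfc1 intron 1 (14.8%, 10.3 to 20.8). cnb1 encodes the regulatory subunit of calcineurin and sfc1 a TFIIIC subunit, and these junctions had 13, 5 and 1 RNA-seq reads in the same order.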

How the data were processed

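The members and gene lists were chosen with earlier results of these data known. Lariat values are deposited whole counts of reads for each pair of 5' site and branch point. The authors give 1 sum per condition over its 4 libraries, so the tests between lariat libraries that the design could have held were not possible. RNA-seq values are deposited counts per junction and library. The fractions headed PSI were made by the authors, whose denominator no source used here states. Other deposited values (positions, lengths, intron classes) were assigned by the authors. The aligner was not given in the sources used here. Per the submitters' processing notes, coordinates follow ASM294v2. On the ASM294v3 reference all 17799 branches start with GT and have an A at the branch point, so sequences were read there.

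Ratios were scaled by annotated branch reads, with exact 95% intervals. Where a count was 0, 3 was set in its place, and fold values made so take the other count as exact. Shares have Wilson 95% intervals. Reads are not unique molecules, so intervals and limits cover counting error at most. Introns needed 50 reads in the higher condition to be counted past 2-fold. Reads of all branch points of a splice site pair were summed. The prz1 intron lies outside the reference gene span but is listed under prz1 by the authors, and was kept. Introns and alternates of each gene are described, those with under 5 reads mostly as counts, along with the 2 nearest introns and the 2 highest and 2 lowest list introns per comparison to rich media.

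Junctions were tested with edgeR 4.0.16 in R 4.3.3 (quasi-likelihood, TMM, filterByExpr with a minimum count of 10, Benjamini-Hochberg adjusted p under 0.05), with strain or condition as covariate. Alternatives were DESeq2 1.42.0 or its size factors, no filter, aligned reads as library sizes, each library left out, a replicate block, other lariat scales, minimum reads and share denominators, and ratios relative to introns of like length (pseudocount 0.5 or 1). Alternate and unannotated junctions were joined for growth and dbr1 (85 passed the filter) and kept apart for upf1 (58 and 178). RNA-seq libraries held 12330328 to 36500561 aligned reads. On simulated counts with log2 changes of 2, the fits recovered 94.1% of changed junctions in the heat shock and diauxic comparisons, 100% for dbr1, and 91.7% and 86.1% for upf1 alternate and unannotated junctions. False calls numbered 0, 2, 0, 1 and 1 in the same order. The simulation used 1 fixed dispersion not estimated from these data, so these rates do not measure the power of the real tests. In the unannotated table the upf1 columns bear no replicate number, and 2 further per-sample columns whose sample could not be settled were not used.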

Additional observations from a re-analysis of the deposited data

Results flagged for a closer look

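The tup12 alternate junction moved in opposite directions in the 2 strains at the diauxic shift: against rich media it changed by -1.61 junction reads per 10000000 aligned reads in wild type and by 3.41 in the dbr1 deletion, on 2 and 0 reads in wild type and 1 and 5 in the dbr1 deletion (rich media, then diauxic shift). This difference was not tested. On the strand opposite to deb1, 5 lariat reads lay inside the gene span, on 3 branches with 1, 3 and 1 reads. Their sum passed the limit of 3 reads set for this flag, but no single branch did. The strand was read from the splice sites, since the lariat protocol keeps none.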

How the results depend on the processing

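Counts of introns past 2-fold rest on few introns. In heat shock the 3 higher became 5 with total reads as scale and 1 with 100 reads as minimum, and the 1 lower became 0 against introns of like length. At the diauxic shift the 2 higher became 1 and the 2 lower 1 with 100 reads, and against introns of like length they were 1 and 0. Between diauxic shift and heat shock the 0 higher became 1 with total reads, TMM or like length, and the 2 lower became 1 with total reads or 100 reads. The cause was not tested.

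Reversed log2 ratios were, with total reads, the deb1 5' intron (2.08 at the diauxic shift, 0.32 in heat shock), the deb1 site at 3536631 (1.26 at the diauxic shift) and tup12 intron 3 between diauxic shift and heat shock (0.65); with TMM, the deb1 5' intron at the diauxic shift (0.48); and against introns of like length, sfc9 intron 2 at the diauxic shift (0.71). The deb1 share of 99.5% became 0.161% when the main branch point was counted as annotated, an alternative chosen after seeing the data. The other shares stayed within their intervals.

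Junction counts in heat shock (5 higher, 0 lower) became 11 higher with DESeq2, 8 with no filter, and 12 higher and 1 lower with aligned reads as library sizes; without 1 library they ranged from 3 to 8 and 0 to 1. For the diauxic shift (0 and 0) they became 5 and 1 with aligned reads, and ranged from 0 to 3 higher without 1 library. For dbr1 (0 and 0) 0 to 1 were higher without 1 library. For upf1 alternates (5 and 3) they became 3 higher with DESeq2 size factors, 2 higher with DESeq2, 14 and 5 with no filter and 21 higher with aligned reads, and ranged from 0 to 10 and 0 to 7 without 1 library. For unannotated junctions (46 and 34) they became 25 and 17 with DESeq2, 20 lower with aligned reads, and ranged from 26 to 46 and 23 to 33 without 1 library. Deviations of the libraries numbered 1 in both strains had a correlation of -0.128 over 58 junctions. With 2 libraries per strain this cannot settle whether the upf1 libraries pair. The replicate block called 0 higher and 0 lower. The crossed replicate block, added after seeing the data, also called 0 and 0.

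Uncalled log2 changes of deb1 3537993 turned to -0.18 (no filter) and -0.36 (aligned reads) for dbr1, and ranged without 1 library from -0.49 to 0.53 there, from -1.32 to 0.10 in heat shock and from 0.075 to 1.59 at the diauxic shift. Those of prz1 turned to -0.050 for dbr1 with aligned reads, and ranged from -0.35 to 3.62 for dbr1 and from -0.16 to 4.53 in heat shock. For upf1, deb1 3536618 turned to 0.077 with aligned reads, and deb1 3536659 ranged from -0.52 to 1.34.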
